A study of Hypsibius dujardini with 126 samples.

Results

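In a course of single embryos of the tardigrade *Hypsibius dujardini*, 156 of 12746 transcript models were present at low levels in the first hours of development, reached a passing maximum between 30 and 49 h and were low again by 90 h. They made up 1.22% of all transcript models. Each was chosen from mean levels per 10 h window, in counts per 1000000 transcript counts of an embryo (CPM). The highest window mean had to lie at 30-39 h or 40-49 h, to be 50 CPM or more, and to exceed 4 times the means at 0-9 h and at 90-99 h. The mean at 0-9 h had to be 1 CPM or more. Transcripts with a count in every kept embryo were to be left out, but none of the 144 such transcripts met the other conditions. The same rule gave 107 transcripts with the maximum at 10-29 h and 120 with the maximum at 50-59 h. Differences between the first, highest and last windows therefore describe how the 156 were chosen and were not tested. The number depends on how libraries are scaled, since the rule gave 108 transcripts with library sizes scaled by the trimmed mean of M-values (TMM), 107 of them among the 156, and 44 with DESeq2's size factors, 37 of them among the 156.

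The series holds 126 embryos, each sequenced alone by CEL-Seq, which barcodes and amplifies the 3′ ends of polyadenylated RNA. The embryos came from laboratory cultures, with no treatment or genotype difference in the labels, and were raised from the 2-cell stage in mineral water at 20 °C. Embryonic age is the only variable, from the 1-cell and 2-cell stages to 99 h at steps of 1 h, so most hours have 1 embryo and the 10 h windows serve as groups. The labels count minutes from fertilization whereas the growth protocol counts hours from the 2-cell stage, so time zero is uncertain. Clutches hold 2 to 5 eggs and no label ties an embryo to a mother, so p-values measure the spread between these embryos only.

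In animal embryos the first RNAs are supplied by the mother and are later joined and replaced by RNAs transcribed from the embryo's own genome. *H. dujardini* lays its eggs in the shed cuticle, and its embryos pass through cleavage, gastrulation, segmentation, limb formation and organ differentiation before hatching as small versions of the adult. A transcript that appears for part of this course and then disappears can mark a cell state or a process of limited duration. In RNA from whole embryos, fewer cells of a type and less RNA per cell cannot be told apart. The deposited counts name transcripts by identifier alone, so the 156 are described by their levels and timing, and no function is assigned to any of them.

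The median embryo had 634044.5 transcript counts, and totals ran from 2347 to 4972036. The 101 embryos with 10% of that median or more were kept, between 4 and 17 per window. One count was worth 15.3 CPM in the shallowest kept embryo. Embryo numbers fall into 3 runs, with embryos 1-25 at 0-18 h and 80-98 h, embryos 26-78 at 47-99 h and embryos 79-126 from the 1-cell stage to 46 h. The labels do not call these runs batches, but transcript counts per spike-in count were between 138 and 172 at 41-46 h in embryos 79-126 and between 4.57 and 6.68 at 47-49 h in embryos 26-78. Age and run cannot be told apart where they change together between 46 and 47 h.

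Several libraries stood apart from their label times. Over 11038 other transcripts, the 7 embryos of 28-34 h (embryos 108-114) correlated with the 0-9 h mean at r between 0.916 and 0.973, and with the 41-46 h mean at r between 0.697 and 0.765. The 5 kept embryos just before them, at 21-27 h, gave r between 0.782 and 0.854 with the 0-9 h mean and between 0.785 and 0.869 with the 41-46 h mean. Embryo 120, at 40 h, gave 0.830 and 0.769, while its neighbours at 39 and 41 h gave 0.737 and 0.703 with the early mean and 0.955 and 0.942 with the later one. Embryo 55, at 76 h, gave 0.799 with the 41-46 h mean, against 0.461 at 75 h and 0.420 at 77 h. These correlations are descriptions across transcripts on log2(CPM + 1). The number of transcripts chosen, and the numbers that rose or fell in comparisons holding any of these 9 embryos, are given with and without them. Groups of rise and decline, and the tests and window means of single transcripts, used all kept embryos. Shares of all transcripts that rose or fell also come from fits with all kept embryos.

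The 156 transcripts together took up a small share of each embryo's RNA at first and a large one around 40 h. In the 17 embryos of 0-9 h their summed share of transcript counts had a lowest value of 0.207%, a median of 0.278% and a highest of 0.406%. At 38, 39, 41, 42, 43, 44, 45 and 46 h the shares were 5.74, 6.48, 6.61, 5.62, 6.67, 6.63, 6.68 and 6.10%. No embryo of 0-9 h came near these 8 embryos, which differed little among themselves, whereas embryo 120, at 40 h, had 1.47%. The rule required a difference between these windows, so the gap describes the choice of the 156. The share was 3.64, 3.40 and 2.64% at 47, 48 and 49 h, between 1.08 and 2.39% at 50-59 h, and 1.61, 1.26, 1.25 and 1.01% in the 4 kept embryos of 60-69 h. By 90-99 h it had a lowest value of 0.0928%, a median of 0.450% and a highest of 0.582%.

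**Figure D1:**
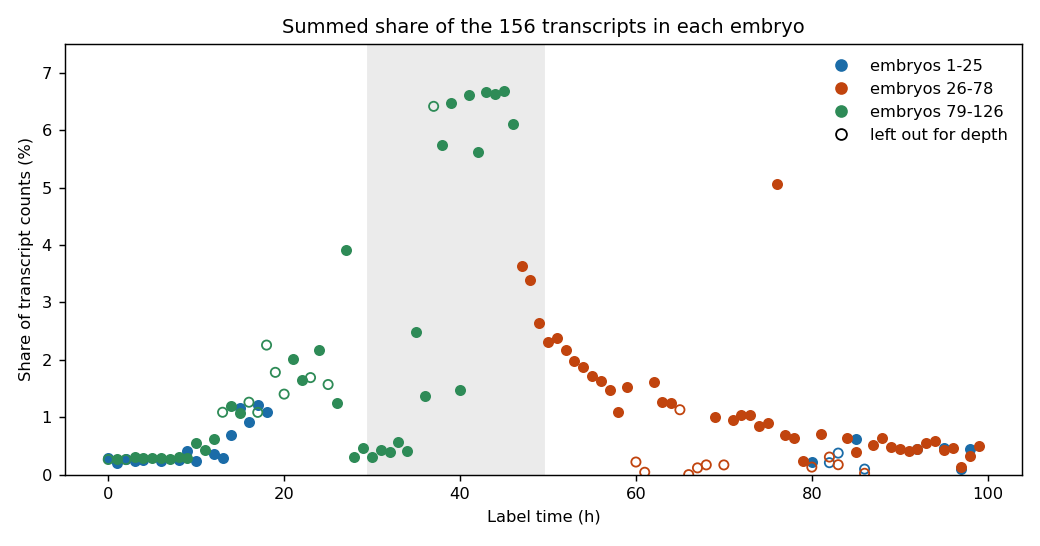
Summed share of the 156 transcripts in each embryo's transcript counts (vertical axis, %) against label time (horizontal axis, h), with 1 point per embryo coloured by run of embryo numbers and open points for embryos left out for depth. The shaded band marks 30-49 h, in which the rule placed the maximum. Shares stay between 0.207 and 0.406% at 0-9 h, reach 6.68% at 45 h, and 1 embryo at 76 h stands at 5.07%.

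The embryos that stood apart by their other transcripts also stood apart here. At 28, 29, 30, 31, 32, 33 and 34 h the shares were 0.302, 0.463, 0.313, 0.426, 0.403, 0.568 and 0.422%, lower than at 21-27 h and close to the first hours. Embryo 120 had 1.47% at 40 h, below its neighbours at 6.48 and 6.61%. Embryo 55 had 5.07% at 76 h, whereas the other 8 embryos of 70-79 h ran from 0.240 to 1.05%. The same order appeared when the counts of the 156 were divided by spike-in counts within embryos 79-126. This gave 2.86, 3.14, 3.14, 1.76 and 7.03 at 21, 22, 24, 26 and 27 h and between 0.477 and 1.54 at 28-34 h. At 38-46 h it gave between 8.52 and 11.5 apart from 2.65 in embryo 120.

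Of the 156 transcripts, 153 had the highest window mean at 40-49 h and 3 at 30-39 h. The 30-39 h window contained 5 of the embryos that stood apart, of 9 kept. When embryos 55, 108-114 and 120 were left out, the 156 transcripts divided differently, with 41 highest at 30-39 h, 108 at 40-49 h and 7 elsewhere. The rule itself then selected 215 transcripts, of which 149 were among the 156, with 93 highest at 30-39 h and 122 at 40-49 h.

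Taken embryo by embryo, the highest value of 113 of the 156 transcripts lay between 37 and 49 h, with 91 at 38-46 h and 22 at 47-49 h. Another 11 were highest in embryo 55 at 76 h. Before 37 h lay 16 maxima, 7 of them in embryo 107 at 27 h, and after 49 h another 16 besides embryo 55, 7 of them in embryo 37 at 58 h, which had 154116 counts. In the plot of all transcripts and embryos, the band at 38-46 h runs through all groups, with a dark column at 40 h and a bright one at 76 h.

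**Figure D2:**
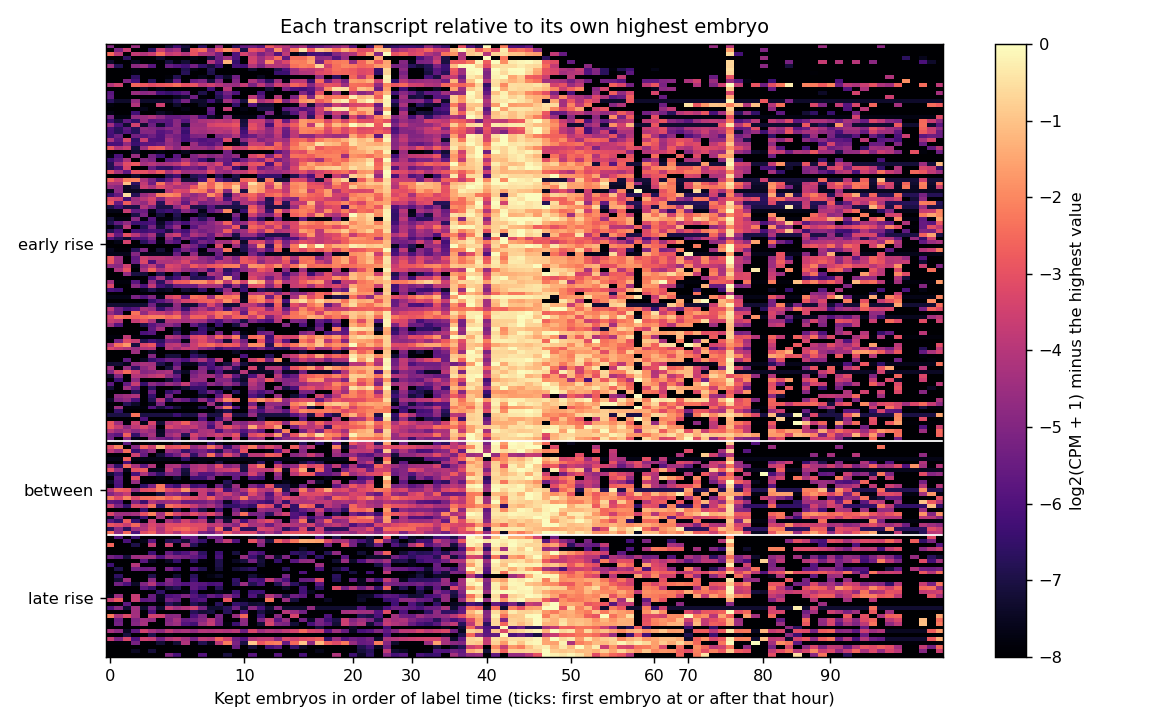
Level of each of the 156 transcripts (rows) in each kept embryo (columns, in order of label time, h), as log2(CPM + 1) minus the transcript's own highest value, so that 0 is its highest embryo. Rows are grouped by level at 20-29 h relative to the maximum; the late-rising group of 31 is mostly dark before 38 h, where its summed share was at most 0.125%, and the embryos of 28-34 h and 40 h are darker than their neighbours.

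Levels at the maximum covered a wide range. The mean in the highest window had a lowest value of 50.7 CPM, a median of 209 CPM and a highest of 1748 CPM over the 156 transcripts. In that window 28 transcripts reached 500 CPM and 34 stayed under 100 CPM. At 0-9 h the means ran from 1.04 to 295 CPM with a median of 8.51 CPM, and at 90-99 h from 0 to 302 CPM with a median of 10.7 CPM. The ratio of the maximum to the 0-9 h mean, which the rule bounded at 4, had a median of 19.5 and reached 1294. The transcripts nearest that bound had ratios to the higher end window of 4.03, 4.04 and 4.07 inside it and 3.96, 3.95 and 3.93 outside it. Nearest the minimum of 50 CPM stood means of 50.7, 51.4 and 52.3 CPM inside and 49.8, 49.3 and 49.1 CPM outside.

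The early presence was low in level. Over the 156 transcripts, the median number of 0-9 h embryos with a count was 14 of 17, the lowest was 2, and 30 transcripts had a count in all 17. In the highest window, 116 of the 156 had a count in every kept embryo, and the lowest number of embryos with a count was 5. The highest embryo contributed a median of 19.3% of the window's summed CPM, with a range from 12.7 to 82.0%, and in 5 transcripts it contributed over 50%. Across the 6 embryos of 41-46 h the coefficient of variation had a median of 31.2% for the 156 transcripts and 27.2% for 3121 other transcripts of 50 CPM or more.

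Embryo 117, at 37 h, was left out for its depth of 38632 counts and took no part in the choice of the transcripts. It held a count for 151 of the 156, at a summed share of 6.41%, close to the 38-46 h embryos and far above embryos 115 and 116 at 35 and 36 h, which had 2.48 and 1.38%. In it, 141 of the 156 stood over 4 times their 0-9 h mean, against 9.58% of the 9281 transcripts with a 0-9 h mean of 1 CPM or more that lacked a count in some kept embryo. Since 1 count is worth 25.9 CPM there, a single count passes that mark for many low transcripts. The median level of the 156 was 259 CPM, and their log2(CPM + 1) values correlated with the 41-46 h means at r = 0.79 and with the 0-9 h means at r = 0.21 over the 156 transcripts. With 1 embryo no test was made. The rule had already required each of the 156 to exceed 4 times the same 0-9 h mean in its highest window. The 9281 were not chosen by that condition, and the 41-46 h embryos took part in the choice of the 156. Both comparisons therefore partly restate the choice, and show only that embryo 117 resembled the 41-46 h embryos in these transcripts. The 8 left-out embryos of 13-25 h, also unused by the rule, had shares with a lowest value of 1.09%, a median of 1.49% and a highest of 2.26%, within the range of the kept embryos of 14-27 h.

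The 156 transcripts did not rise together. Grouped after their values were seen, 101 had a 20-29 h mean of at least 25% of their maximum and are called early-rising, 31 had under 10% and are called late-rising, and 24 lay between. These cut-offs describe a continuous range from 0.0441 to 99.9% and give no test. The early-rising group summed to 0.109 to 1.08% of counts at 10-19 h and to 1.90, 1.53, 2.01, 1.12 and 3.45% at 21, 22, 24, 26 and 27 h. The late-rising group stayed between 0.0147 and 0.0860% at 0-19 h and at 0.0252, 0.0194, 0.0293, 0.0448 and 0.125% in the same 5 embryos of 21-27 h. In the 8 embryos of 13-25 h left out for depth it lay between 0 and 0.341%. Its share then stood at 1.55% or more in all 8 embryos of 38, 39 and 41-46 h, with a highest of 2.11%.

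Embryo 107 is part of the 20-29 h mean that set the groups, so its values describe the grouping, whereas embryos 115 and 117 lie outside that window. In embryo 107, at 27 h, the early-rising group had 3.45%, inside its range of 3.18 to 3.83% at 38-46 h without 40 h. The late-rising group had 0.125% there, below every one of those 8 embryos. In embryo 115, at 35 h, the values were 2.28% and 0.0592%. In embryo 117, at 37 h, both groups were at their 38-46 h levels, with 3.30% and 2.06%. Per transcript, the late-rising group had median levels of 19.8 CPM in embryo 107, 7.36 CPM in embryo 115 and 337 CPM in embryo 117, whereas the early-rising group had 197, 166 and 233 CPM.

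**Figure D3:**
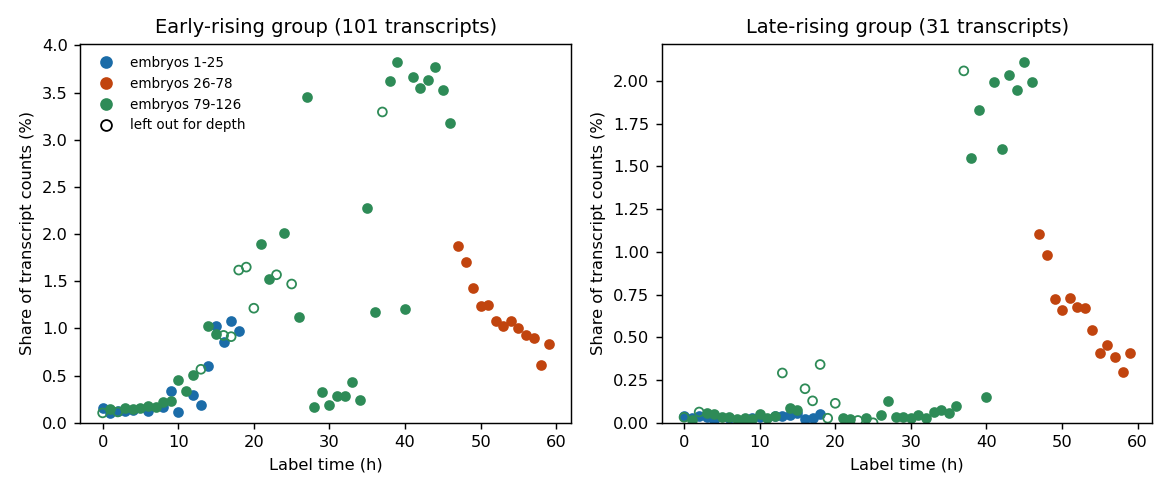
Summed share of transcript counts (vertical axes, %, with a separate scale in each panel) against label time (h) up to 59 h for the early-rising group of 101 transcripts (left) and the late-rising group of 31 (right), with 1 point per embryo and open points for embryos left out for depth. The embryo at 27 h reaches 3.45% in the left panel and 0.125% in the right, and the embryo at 37 h reaches 3.30% and 2.06%.

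The first tested step was the change from 10-19 h to 20-29 h, windows which had only to lie below the maximum. They lie between a low first window and a later maximum, both required by the rule, so the choice favours a rise. The choice likewise favours a fall between windows after the maximum. All transcripts met no such condition, so comparisons with them partly restate the choice. Of the 156 transcripts, 17 rose and none fell in edgeR's quasi-likelihood test with Benjamini-Hochberg adjustment over 11802 transcripts at 0.05, with 7 embryos against 13. Among all transcripts tested, 0.924% rose and 0.381% fell. The median log2 change was 1.03 over the 156 and 0.02 over all, and 133 of the 156 had an estimate above 0. At an unadjusted p under 0.05 stood 49 of the 156 in either direction, and DESeq2 called 25 higher and none lower. Without the 9 doubted embryos, of which those at 28 and 29 h lie in these windows, 24 rose and none fell. With embryos 79-126 alone, which supply all of 20-29 h but 5 of the 13 embryos of 10-19 h, 5 rose.

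The shares at 10-19 h differed within the window by age. In embryos 1-25 they were 0.244, 0.370 and 0.289% at 10, 12 and 13 h and 0.699, 1.16, 0.914, 1.21 and 1.09% at 14, 15, 16, 17 and 18 h. In embryos 79-126 they were 0.560, 0.430 and 0.618% at 10, 11 and 12 h and 1.19 and 1.07% at 14 and 15 h. In both runs the kept embryos of 14-18 h were above the kept embryos of 10-13 h. Embryos 79-126 had no kept embryo at 13 h, and embryo 93, left out for depth at that hour, had 1.09%. Compared over 0-18 h with age windows in the fit, 16 embryos of the first run against 14 of the last, 3 of the 123 transcripts that passed the filter on low counts were higher in embryos 1-25 and 4 were lower in edgeR's quasi-likelihood test. Over all 7869 transcripts tested, 10.9% were higher and 3.55% lower. The median log2 difference was -0.01 over the 123 and 0.11 over all. With a spline of age in place of the windows, 3 were higher and 15 lower, and the median was -0.46, against 0.11 over all. Shares of all transcripts are not given for the spline. At 10-19 h the kept embryos reached 18 h in embryos 1-25 but only 15 h in embryos 79-126. Since the shares differed by age within that window, the fit with windows cannot fully separate run from age. Its median of -0.01 therefore does not show that the runs were alike.

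After the maximum the 156 transcripts came down at different speeds. Grouped by level at 50-59 h, again after the values were seen, 55 kept 50% or more of their maximum, 17 kept under 10% and 84 lay between. The 17 quickly declining transcripts had a median of the mean level of 465 CPM at 41-46 h, 50.7 CPM at 47-49 h, 2.34 CPM at 50-59 h and 0 CPM at 60-69 h. For 11 of the 17, no count was found in any of the 4 kept embryos of 60-69 h. The 55 slowly declining transcripts had medians of 221, 169, 110 and 72.7 CPM at the same times. Over all 156, 13 had no count in any of the 14 embryos of 90-99 h. Each group of decline held transcripts of every group of rise. The quickly declining group held 10 early-rising, 4 late-rising and 3 intermediate transcripts, and the slowly declining group held 32, 14 and 9.

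**Figure D4:**
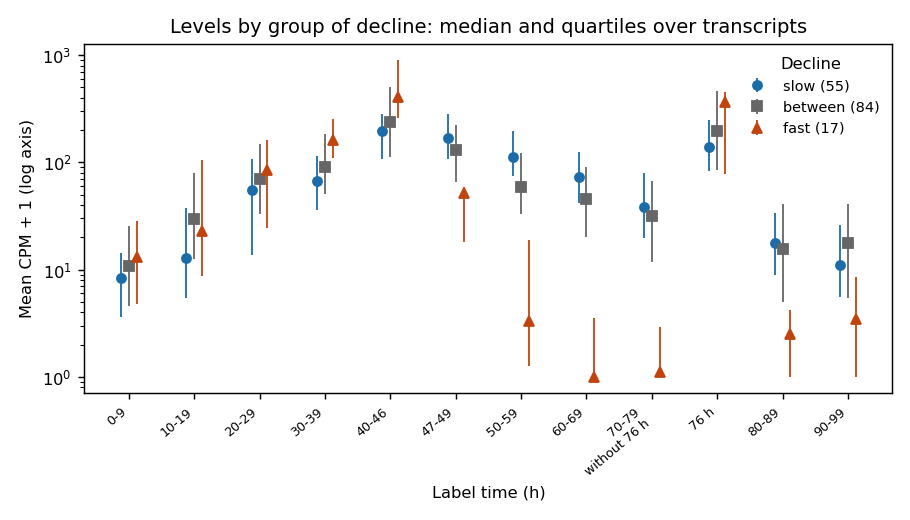
Mean level per label window (horizontal axis, h) as CPM + 1 on a log axis, with the median (symbol) and quartiles (bar) over the 55 slowly declining, 84 intermediate and 17 quickly declining transcripts. Groups were set by the 50-59 h level, where the 17 have a median of 2.34 CPM. The drawn window of 40-46 h includes embryo 120, and without it, at 41-46 h, the median of the 17 was 465 CPM. The embryo at 76 h, drawn apart, has a median of 363 CPM for them.

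The step inside the highest window coincided with the change of run. The mean over 40-49 h chose 153 of the 156, so these are the values that chose them, and the counts below are a description. Between 40-46 h (7 embryos) and 47-49 h (3 embryos), 2 of the 156 rose and 4 fell, against 5.38% higher and 8.57% lower among all 12053 transcripts tested by edgeR's quasi-likelihood test. The median log2 change was -0.72 for the 156 and -0.51 for all. Without embryo 120 and the other doubted embryos, none rose and 2 fell, and the median was -1.13 for the 156 and -0.62 for all. When the embryo at 47, 48 or 49 h was left out in turn, none rose and at most 1 fell. DESeq2 called none higher and 16 lower, and 19 of the 156 had an unadjusted p under 0.05 in edgeR.

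From 20-29 h to 50-59 h, across the maximum, the 156 moved in both directions, as all transcripts did. In the quasi-likelihood test of edgeR, 25 rose and 26 fell, 10 embryos against 7, while 17.5% of all transcripts rose and 25.7% fell. The median log2 change was -0.54 for the 156 and -0.76 for all. The share that rose was 16.0% of the 156, near that of all transcripts, and the share that fell was 16.7%, below that of all. Without the 9 doubted embryos, 24 rose and 24 fell, and the medians were -0.64 for the 156 and -0.18 for all, so the order of the medians turned. DESeq2's size factors moved the median of all transcripts to -1.62, and edgeR then called 19 higher and 52 lower. With a term for the run, estimated from embryos outside these windows, 11 rose and 2 fell.

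Between 50-59 h and 70-79 h, 8 of the 156 rose and 7 fell, 9 embryos against 10, where 14.2% of all transcripts rose and 7.82% fell. All 8 that rose were among the 17 quickly declining transcripts, a group set by its low level at 50-59 h. The 17 had a median of 363 CPM in embryo 55 (76 h) and a median of the mean level of 0.114 CPM over the other 8 embryos of 70-79 h. Over all 156, embryo 55 contributed a median of 42.0% of the summed CPM of 70-79 h, and over 50% in 66 transcripts. Without embryo 55 and the other doubted embryos, 2 of the 156 rose and 24 fell, and the median log2 change was -1.11 rather than -0.41, with 0 for all transcripts in both fits. The 14.2% and 7.82% of all transcripts belong to the fit with embryo 55 and have no counterpart here without it.

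The low levels before and after the maximum were also compared. From 10-19 h to 80-89 h, 19 of the 156 were higher and 50 lower, 8 embryos against 13, which is 12.2% and 32.1% of them, against 29.2% higher and 30.1% lower among all transcripts in edgeR's quasi-likelihood test. The share that was lower was near that of all transcripts. The median log2 change was -1.0 for the 156 and -0.53 for all. The early-rising group had a median of the mean level of 36.6 CPM at 10-19 h and 13.1 CPM at 80-89 h. The late-rising group had 6.81 and 19.3 CPM, the opposite order. A term for the run gave 11 higher and 19 lower, 10 and 18 of them also called without it. Embryos 1-25 alone, which cover both ages, gave 7 higher and 12 lower, 5 and 8 of them also called with all runs. Their kept 80-89 h embryos were embryos 17 and 20, and 1 transcript took 51.3% of the counts of embryo 17. In that fit the median log2 change was -6.73 for the 156 and -4.11 for all. Shares of all transcripts are not given for these fits.

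**Figure D5:**
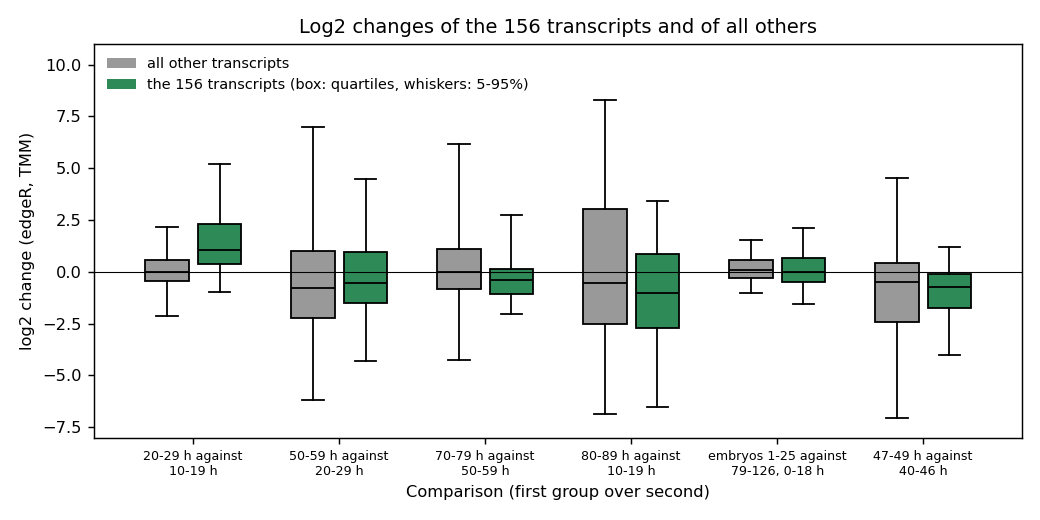
Log2 changes from edgeR with trimmed mean of M-values (TMM) scaling (vertical axis) in the 6 comparisons (horizontal axis, first group over second) for the 156 transcripts (green) and all other transcripts tested (grey). Boxes span the quartiles with a line at the median and whiskers reach from the 5th to the 95th percentile; the green box lies above the grey one at 20-29 h against 10-19 h, with a median of 1.03, and only 123 of the 156 passed the filter for the comparison of runs at 0-18 h.

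The transcript with the highest mean at 40-49 h was HD_v1_tr_03992, a late-rising transcript. It had a count in 8 of 17 embryos of 0-9 h, where its lowest, median and highest levels were 0, 0 and 12.5 CPM. At 30, 31, 32, 33 and 34 h it stood at 0.674, 19.2, 15.5, 42.6 and 21.7 CPM. It reached 846 and 2458 CPM at 38 and 39 h, 50.2 CPM in embryo 120, and 2585, 642, 2485, 2713, 3020 and 3373 CPM at 41 to 46 h. The groups of 0-9 h and 41-46 h, which took part in its choice, did not overlap. At 47, 48 and 49 h it stood at 1178, 874 and 562 CPM, and at 50-59 h between 201 and 877 CPM with a median of 447 CPM. It kept a median of 273 CPM at 90-99 h, with no count in 2 of 14 embryos.

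Pooled over embryos, HD_v1_tr_03992 was 2034 times higher at 40-49 h than at 0-9 h, with a 95% exact interval from 1407 to 3062 that covers counting error only. This ratio belongs to the choice of the transcript. Among tests that did not use those windows, it rose from 10-19 h to 20-29 h by a log2 change of 3.73 ± 0.95 (SE; edgeR, adjusted p = 0.0188), with 239 CPM in embryo 107 and between 0 and 44.8 CPM in the other 6 embryos of 20-29 h. At 10-19 h its lowest, median and highest levels were 0, 0 and 51.6 CPM, so these groups overlapped. From 50-59 h to 70-79 h its log2 change was 0.40 ± 0.85 (SE; edgeR, adjusted p = 0.881), with a median of 383 CPM in the 8 embryos of 70-79 h other than embryo 55, which had 1813 CPM.

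HD_v1_tr_06480 had the highest mean among the 3 transcripts with their maximum at 30-39 h, 112 ± 120 CPM (SD, n = 9). Its lowest, median and highest levels were 0, 14.5 and 103 CPM at 0-9 h, 2.01, 71.9 and 279 CPM at 10-19 h, and 28.9, 56.6 and 385 CPM at 30-39 h. These groups overlapped. From 47 h on few embryos had a count. No count was found in any of the 3 embryos of 47-49 h, the 10 of 50-59 h, the 4 of 60-69 h or the 14 of 90-99 h, and among 70-79 h embryos only embryo 55 had counts, at 121 CPM. At 80-89 h 1 of 8 kept embryos had a count, at 11.0 CPM, and embryo 21, left out for depth at 86 h, had 14 counts, or 243 CPM. Pooled, it was at least 182-fold lower at 50-59 h than at 20-29 h, against a floor of 3 counts over the 10 embryos.

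HD_v1_tr_10856 showed the largest log2 fall from 20-29 h to 50-59 h among the transcripts called, -10.57 ± 1.45 (SE; edgeR, adjusted p = 2.28e-08). At 21, 22, 24, 26, 27, 28 and 29 h it stood at 32.6, 83.1, 216, 18.1, 598, 76.5 and 98.8 CPM, and none of the 10 embryos of 50-59 h had a count. With no count at 50-59 h, the size of its log2 change depended on the method, and DESeq2 gave -27.90. Pooled, HD_v1_tr_10856 was at least 438-fold lower at 50-59 h, against a floor of 3 counts over the group. It was present from the start, with lowest, median and highest levels of 0, 41.1 and 108 CPM at 0-9 h, and reached 189 to 437 CPM at 41-46 h with a median of 296 CPM. At 47, 48 and 49 h it stood at 0, 43.2 and 11.9 CPM. Embryo 55 had 388 CPM, and of the other 8 embryos of 70-79 h 1 had a count, at 7.08 CPM.

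HD_v1_tr_07590, the next largest fall, had a different pattern, in which single embryos set the means. At 20-29 h embryo 106 (26 h) had 2016 CPM and the other 6 had between 1.32 and 8.45 CPM. At 40-49 h embryo 120 had 6219 CPM, which is 82.0% of the window's sum, embryo 122 (42 h) had 1275 CPM, and the other 8 had at most 59.0 CPM. At 10-19 h, however, all 13 embryos had counts, from 14.9 to 1824 CPM with a median of 284 CPM. Its maximum at 40-49 h therefore rests on embryo 120. At 50-59 h it had 2 counts, both in embryo 36 at 57 h, and the pooled ratio of 20-29 h to 50-59 h was 784 with a 95% exact interval from 217 to 6484. The log2 change was -9.96 ± 1.98 (SE; edgeR, adjusted p = 3.07e-05), and -2.56 and not called with a term for the run.

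Some of the 156 may not be separate measurements. In 10 pairs, 17 transcripts in 8 groups had profiles that correlated at r between 0.985 and 0.999 over the kept embryos and mean levels within a ratio of 0.954 to 1.08. Reads shared by near-identical models or overlapping genes cannot be told apart here from separate genes with like timing, since no sequences were compared. The number of independent genes behind the 156 is therefore uncertain.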

How the data were processed

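Single-embryo CEL-Seq libraries of 126 embryos were analysed. The authors deposited unnormalized read counts for each transcript model. HTSeq 0.5.4p3, Bowtie2 2.1.0 and CASAVA 1.8 are the tools listed in the submitters' processing notes, while build and annotation were not given in the sources used here. Neither the 92 ERCC spike-ins nor the 5 summary rows of the counting program entered library sizes or tests. CPM here means counts per 1000000 transcript counts of an embryo. Embryos under 10% of the median total were left out. Reads carry no molecular identifier in the counts, so intervals and floors cover counting error only.

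CPM and window means were computed with Python 3.11.15, pandas 2.3.3 and numpy 2.4.6. Tests used edgeR 4.0.16 in R 4.3.3, with TMM scaling, a filter on low counts, quasi-likelihood tests and Benjamini-Hochberg adjustment over all transcripts, and were tested on simulated data. Windows were fitted together in 1 model, so they share 1 estimate of the spread. Each SE of a log2 change was computed as its size over the square root of the F statistic, since the test reports no SE. DESeq2 1.42.0, DESeq2's size factors in edgeR (RLE), no filter, a 20% depth limit, terms for the run of embryo numbers, a spline of age with 3 degrees of freedom, single runs and left-out embryos were alternatives. The transcripts, groups and lists were chosen with earlier results of these data known. Near-identical profiles were those with r of 0.98 or more and a ratio of means from 0.8 to 1.25.

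Identifiers were named by a rule: the highest mean among transcripts with the maximum at 30-39 h and at 40-49 h, and the 2 largest falls among the others called lower at 50-59 h than at 20-29 h, with counts in at least 80% of 40-49 h embryos. The lists of marker genes that had been drawn up could not be applied, since identifiers are not paired with gene names here.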

Additional observations from a re-analysis of the deposited data

Results flagged for a closer look

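Among 42 groups of 4 to 10 embryos checked, 18 held 1 embryo whose gap to the others was large for the range of the group (Dixon's test at 95%), where chance gives about 1 in 20 for normal, independent groups. These groups are neither, since the shares overlap in their transcripts and 1 value above 0 among zeros always passes. Embryo 55 (76 h) gave 6 of them at 70-79 h. Its share was 5.07% for the 156 transcripts, 2.70% for the early-rising group and 1.51% for the late-rising group, and its levels were 121 CPM for HD_v1_tr_06480, 1813 CPM for HD_v1_tr_03992 and 388 CPM for HD_v1_tr_10856. The next highest embryos of the window were at 1.05%, 0.697% and 0.320%, and at 0, 697 and 7.08 CPM. Its other transcripts moved with these values, as the correlations given for it show, and their part in the result was not tested.

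At 20-29 h, embryo 107 (27 h) stood apart with a late-rising share of 0.125%, 239 CPM of HD_v1_tr_03992 and 598 CPM of HD_v1_tr_10856, and embryo 106 (26 h) with 2016 CPM of HD_v1_tr_07590. At 30-39 h, embryo 116 (36 h) had 385 CPM of HD_v1_tr_06480 and embryo 119 (39 h) had 2458 CPM of HD_v1_tr_03992. At 40-49 h, embryo 122 (42 h) had 312 CPM of HD_v1_tr_06480 and embryo 120 (40 h) had 6219 CPM of HD_v1_tr_07590. At 50-59 h, embryo 36 (57 h) had 2.51 CPM of HD_v1_tr_07590, where the other 9 had none.

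At 80-89 h, embryo 17 (80 h) had 11.0 CPM of HD_v1_tr_06480 and 275 CPM of HD_v1_tr_07590, both without a count in the other 7 embryos. In that library 1 transcript took 51.3% of the 90771 counts. Embryo 20 (85 h) had 1222 CPM of HD_v1_tr_03992 against at most 495 CPM in the others.

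Embryo 117 (37 h), left out for depth, held a share of 6.41% for the 156 transcripts. A count of 0 would allow up to 0.00777% there.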

How the results depend on the processing

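Of 131 alternative values over 15 results, 95 kept their call or stayed within 1.5 times the count, 35 moved further and 1 lost its call. This tally compares numbers and not which transcripts were called, and a count of 0 in both settings scores as kept. Between runs at 0-18 h, for example, the spline gave 3 higher for 3, but only 1 of them was the same transcript. A change of direction could be scored only for the log2 changes of HD_v1_tr_10856 and HD_v1_tr_07590, and none occurred. No paired analysis was possible because replicate numbers follow accession order only and embryos differ in age. The number of transcripts meeting the rule was 156, between 108 and 215 under the other settings except RLE (133 with medians per window, 89 of them among the 156, and 108 with TMM sizes, 107 of them), 148 to 172 with 1 embryo of 30-49 h left out, and 44 with RLE library sizes, of which 37 were among the 156. From 10-19 h to 20-29 h, embryos 79-126 alone gave 5 higher for 17. From 20-29 h to 50-59 h, the run term gave 11 higher for 25 and 2 lower for 26, RLE 52 lower and DESeq2 51 lower. From 50-59 h to 70-79 h, leaving out embryos 55, 108-114 and 120, chosen after seeing the data, gave 2 higher for 8 and 24 lower for 7. From 10-19 h to 80-89 h, against 19 higher and 50 lower, RLE gave 12 higher, DESeq2 11 higher and 80 lower, the run term 11 higher and 19 lower, and embryos 1-25 alone 7 higher and 12 lower. Between runs at 0-18 h, against 3 higher and 4 lower, no filter gave 6 and 8, DESeq2 7 and 9, the spline 15 lower and the 20% depth limit 2 lower. From 40-46 h to 47-49 h, against 2 higher and 4 lower, RLE and no filter gave 1 higher, the 20% depth limit 0 higher, leaving out embryos with over 10% on 1 transcript 4 higher, leaving out the doubted embryos 0 higher and 2 lower, DESeq2 0 higher and 16 lower, and leaving out 1 embryo of 47-49 h 0 higher and 0 to 1 lower. The fall of HD_v1_tr_07590 was -2.56 (log2) and not called with the run term. The causes were not tested. Depth limits the early levels: with 4 kept embryos at 60-69 h and 15.3 CPM per count in the shallowest embryo, low levels were not detectable in every embryo.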
